A study of Homo sapiens with 6 samples.

Results

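DEAD and DEAH box RNA helicases were examined in HEK293A-TOA, a cell line from human embryonic kidney, after knockdown of the splicing factor SFSWAP. Members were the retained intron and skipped exon events of genes whose symbol begins with DDX or DHX and a number, without DDX39B and DDX42, at a mean of at least 20 junction reads per library. They numbered 943 of 174326 events, with 184 introns in 37 genes and 759 exon events in 44 genes. Of these, 144 introns and 324 exon events on 305 different exons had enough reads of both forms to be tested. At the threshold, a DHX36 intron of 1787 nt with a mean of 20 reads was just inside, at 84.7% inclusion in siNT and 76.3% in siSFSWAP, and a DDX55 intron of 58 nt with 19.8 reads was just outside. Among exons a DDX51 exon of 212 nt with 20 reads was just inside and a DDX58 exon of 105 nt with 19.8 reads just outside. Besides DDX58, only DHX58, DDX19A-DT and DHX40P1 were listed without reaching the minimum.

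The control group, siNT, held 3 biological replicates transfected with a non-target siRNA, and the knockdown group, siSFSWAP, held 3 that received a mix of 2 siRNAs against SFSWAP. Both had 40 nM siRNA, were split the day after transfection, were grown for 4 more days without any inhibitor, and were lysed after 5 days. All 6 samples came from 1 cell line, and polyadenylated RNA was sequenced. A transient knockdown leaves some of its target, and the spliced junction reads of SFSWAP fell from 81.9 ± 3.48 to 30.3 ± 7.70 CPM (counts scaled to a common library total; SD, n = 3 each), or 37.0% of siNT.

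RNA helicases use ATP to open RNA duplexes or to strip proteins from RNA. The DEAD and DEAH names spell 4 amino acids of the ATP-binding core. DEAH helicases such as DHX8, DHX16 and DHX38 drive single steps of the spliceosome, while many DEAD helicases act in the nucleolus on precursors of ribosomal RNA. Others unwind messenger RNA for translation or load it for export. An intron that stays in a polyadenylated RNA usually keeps that RNA in the nucleus or sends it to decay.

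The deposited tables held 2767079 to 7465949 junction reads per library for introns and 19515010 to 55274283 for exons. The tables do not number the replicates, and within each group the letters a, b and c name the libraries in table order. The deepest library, siNT a, stood apart from siNT b and c. It had the lowest intron inclusion of the siNT libraries in 51.4% of all tested introns and in 75 of the 144 member introns. Values without it are therefore given beside the results. VIM and CDH2, genes of this cell lineage, had reads in all 6 libraries, while NEFM, NEFL, INA and PAX2 had none. Markers of blood, liver, heart and red cells (PTPRC, CD3E, ALB, MYH7, HBB) were at 0, and COL1A1 of fibroblasts had a mean of 10.5 reads. The tables list splicing events, so a gene without a listed event stands at 0 whatever its expression, and a 0 here does not show that a gene is off.

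The first question was whether the amount of spliced helicase RNA differed after the knockdown. Junction reads of the exon table were summed per gene over different exons and given as CPM. A read at a junction shared by several listed exons enters more than once, so the sums weigh junctions unequally. These sums move with splicing as well as with RNA amount, and in bulk RNA fewer cells with a transcript and less of it per cell cannot be told apart. All 44 helicase genes could be tested. Spliced reads were lower for 15 helicases, most of them of the nucleolus, and higher for 6. Among all 10780 genes, 14.9% were called lower and 15.1% higher (limma, adjusted p at most 0.05), against 34.1% and 13.6% of the helicases. The median log2 fold change was -0.10 over the helicases and 0.00 over all genes. With DESeq-type size factors or plain library totals in place of the main scaling, 15 and 6 were again called.

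The helicases of ribosome biogenesis had the most calls, with 9 of 16 lower and 1 higher, beside 14.9% and 15.1% of all genes. Their median log2 fold change was -0.41. DDX21, which couples ribosomal RNA transcription to its processing, fell the most. It had 1067, 1412 and 1433 CPM in siNT and 708, 695 and 642 CPM in siSFSWAP, so the groups lay well apart. Its log2 fold change was -0.92 ± 0.10 (SE; adjusted p = 0.000424, lower in 3 of 3 libraries), which left 52.3% of the siNT mean. DDX31, a nucleolar helicase, had 45.7, 56.0 and 55.4 CPM in siNT and 36.4, 36.6 and 33.1 CPM in siSFSWAP, with a log2 fold change of -0.56 ± 0.11 (adjusted p = 0.00427). DDX52, needed for the small ribosomal subunit, had 109, 134 and 138 CPM against 88.8, 87.0 and 83.1 CPM, and its log2 fold change was -0.55 ± 0.10 (adjusted p = 0.00316). In both genes the groups did not overlap.

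The other 6 lower nucleolar helicases, DHX33, DDX18, DDX47, DDX10, DDX24 and DDX27, act in the maturation of either ribosomal subunit. Their log2 fold changes ran from -0.52 for DHX33 to -0.40 for DDX27, with adjusted p between 0.00681 and 0.0215. DDX49 alone of this list rose, from 125, 110 and 93.9 CPM in siNT to 133, 144 and 130 CPM in siSFSWAP (log2 fold change 0.32 ± 0.11, adjusted p = 0.0429). DDX50, the close relative of DDX21, had a log2 fold change of 0.19, DDX54 of 0.19 and DHX37 of -0.23. None of these passed the threshold with all libraries, but each did without siNT a (adjusted p = 0.00865, 0.0217 and 0.00138). In all 9 genes that fell, siNT a was the lowest siNT library and so nearest to siSFSWAP, as it was in 78.2% of all genes called lower. Without siNT a, 12 nucleolar helicases were called lower and 3 higher, and over all helicases 22 lower and 13 higher, while 23.7% and 24.0% of all genes were called.

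**Figure D1:**
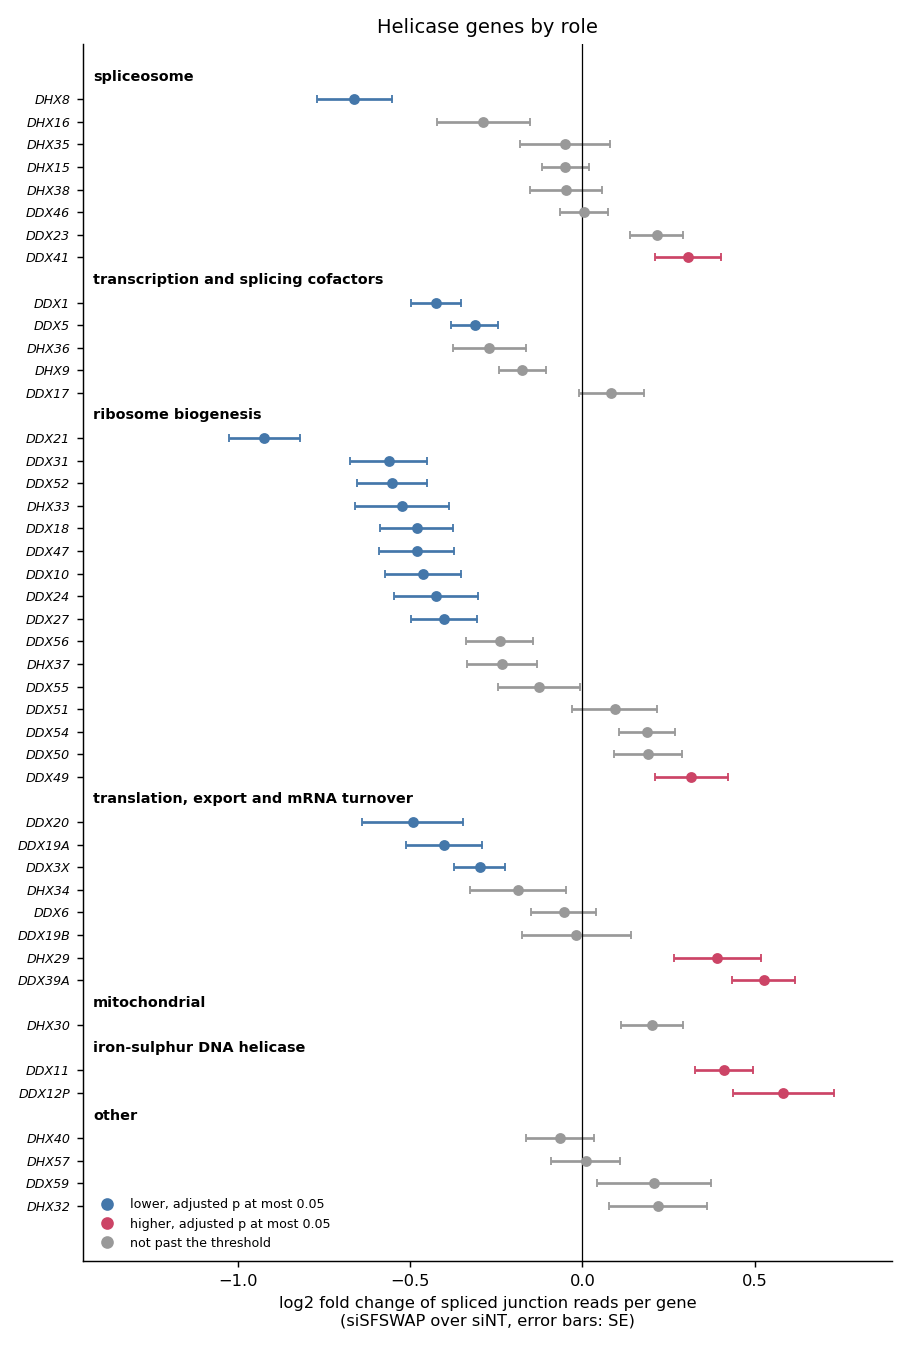
Log2 fold change of spliced junction reads per gene (siSFSWAP over siNT, x axis) for the 44 helicase genes, grouped by role; points are the fitted values and bars their SE, with n = 3 per group. Of the ribosome biogenesis list 9 genes lie left of 0 in blue and DDX49 right of 0 in red, while most spliceosomal helicases are grey.

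Of 8 spliceosomal helicases, 1 fell, 1 rose and 6 did not pass the test. That is 12.5% in each direction, near the 14.9% and 15.1% of all genes. DHX8, which releases the finished messenger RNA from the spliceosome, had 74.5, 95.1 and 93.5 CPM in siNT and 53.9 to 56.5 CPM in siSFSWAP. The groups did not overlap, and the log2 fold change was -0.66 ± 0.11 (adjusted p = 0.0018). DDX41, a spliceosomal helicase whose inherited mutations predispose to myeloid leukaemia, rose from 62.5, 68.1 and 64.3 CPM to 86.7, 81.3 and 73.4 CPM (log2 fold change 0.31 ± 0.10, adjusted p = 0.0315). DDX23, the helicase that opens the 5′ splice site for U6, had a mean of 184 ± 10.2 CPM in controls and 213 ± 6.84 CPM in knockdown cultures (SD, n = 3 each), with an adjusted p of 0.0553. DDX46, DHX15, DHX38 and DHX35 had log2 fold changes between -0.05 and 0.00, with overlapping libraries in each, and DHX16 had -0.29. Both DDX23 and DHX16 passed the test when siNT a was left out (adjusted p = 0.00678 and 0.00754).

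Among the cofactors of transcription and splicing, 2 of 5 fell and none rose, beside 14.9% and 15.1% of all genes. DDX5, a coactivator that also unwinds pre-mRNA, had 1147, 1178 and 1142 CPM in siNT and 979, 956 and 859 CPM in siSFSWAP. Its log2 fold change was -0.31 ± 0.07 (adjusted p = 0.00601). DDX1, part of the transfer RNA ligase complex, fell from 423 ± 16.7 to 315 ± 16.8 CPM (SD, n = 3 each; adjusted p = 0.00223). The paralog of DDX5, DDX17, stood at 359 ± 43.0 CPM against 379 ± 28.9 CPM, and its libraries overlapped. DHX9 and DHX36 had log2 fold changes of -0.17 and -0.27 that missed the threshold, although all siSFSWAP libraries lay below siNT in both. When siNT a was left out, DHX9, DHX36 and DDX17 passed it, at -0.16, -0.34 and 0.19 (adjusted p = 0.0359, 0.00739 and 0.0367).

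Of the 8 helicases of translation, export and turnover, 3 fell and 2 rose, beside 14.9% and 15.1% of all genes. DDX39A, an export helicase closely related to DDX39B, had 113, 135 and 121 CPM in siNT and 165, 179 and 187 CPM in siSFSWAP, with no overlap. This was a log2 fold change of 0.53 ± 0.09 (adjusted p = 0.00239). DHX29, which helps ribosomes to scan structured leaders, rose by 0.39 on the log2 scale (adjusted p = 0.0361). DDX3X, a helicase of translation initiation, fell from 1473, 1409 and 1377 CPM to 1283, 1113 and 1077 CPM (log2 fold change -0.30 ± 0.07, adjusted p = 0.0116). DDX20, of the SMN complex, and DDX19A, of the nuclear pore, had log2 fold changes of -0.49 and -0.40 (adjusted p = 0.0264 and 0.0181).

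DDX11, an iron-sulphur DNA helicase of sister chromatid cohesion, had 126, 131 and 122 CPM in siNT and 155, 180 and 170 CPM in siSFSWAP (log2 fold change 0.41 ± 0.08, adjusted p = 0.00507). Its pseudogene copy DDX12P rose by 0.58 ± 0.15 on the same scale (adjusted p = 0.0123). The copies are nearly identical, so reads may be split between them, and both values are uncertain in that respect.

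Of the 21 genes called, 10 were called under all 11 alternative settings of the fit, which include leaving out each library. The 8 lower genes were DDX21, DHX8, DDX1, DDX52, DDX31, DDX5, DDX18 and DDX47, and the 2 higher were DDX39A and DDX11. DDX49, DHX29, DDX19A and DDX24 passed without siNT a but missed the threshold when any 1 of the other 5 libraries was left out, at adjusted p of 0.051 to 0.165. DDX41 missed it without siNT b or c or siSFSWAP a or b, DDX20 without siNT b or c or siSFSWAP b or c, and DHX33 without siNT b or c or siSFSWAP c, at up to 0.13, 0.127 and 0.0775. DDX10 missed it without siNT b or siSFSWAP c (0.0538 at most), DDX3X without siSFSWAP b or c (0.0642 at most), DDX27 without siNT b (0.0542) and DDX12P without siSFSWAP b (0.0671).

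The next question was whether helicase introns were spliced more or less after the knockdown. Inclusion is the percentage of RNA with the intron still in place, from junction reads divided by effective lengths. A call needed a change of 20 points or more besides an adjusted p up to 0.05 in the quasi-binomial F test, and no helicase intron met both in either direction. Among all 10155 tested introns, 1.61% were called lower and 0.148% higher. At an unadjusted p under 0.05, 16 of the 144 helicase introns were lower and 7 higher, against 12.4% and 3.41% of all introns. Limma on the log2 odds called 0 of all 10155 introns, so its count of 0 helicase introns carries no information. At the adjusted p with no minimum change, 3 helicase introns were lower and 1 higher, against 2.86% and 0.364% of all introns. In data simulated with a fixed, assumed spread between libraries, that criterion alone passed more unchanged introns than its level allows. Introns that met only it are therefore to be read with more caution than the adjusted p states. Separate groups were seen in 16 introns with all siSFSWAP libraries below siNT and 14 with all above, against 15.3% and 6.02% of all introns.

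The median change was -0.06 points over the helicase introns and -0.52 points over all tested introns. The former was -0.35 points without siNT a and turned to 0.18 points without siNT c and to 0.10 points without siSFSWAP a, so it had no stable direction. Lower means were seen in 76 of 144 helicase introns, or 52.8%, against 61.2% of all. Most helicase introns were kept in few transcripts, with a median inclusion of 6.57% to 8.78% across libraries. Of the 50 introns with siNT inclusion from 10% to 90%, 30 had a lower mean in siSFSWAP, with a median change of -2.13 points. Over all such introns the median change was -4.69 points.

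**Figure D2:**
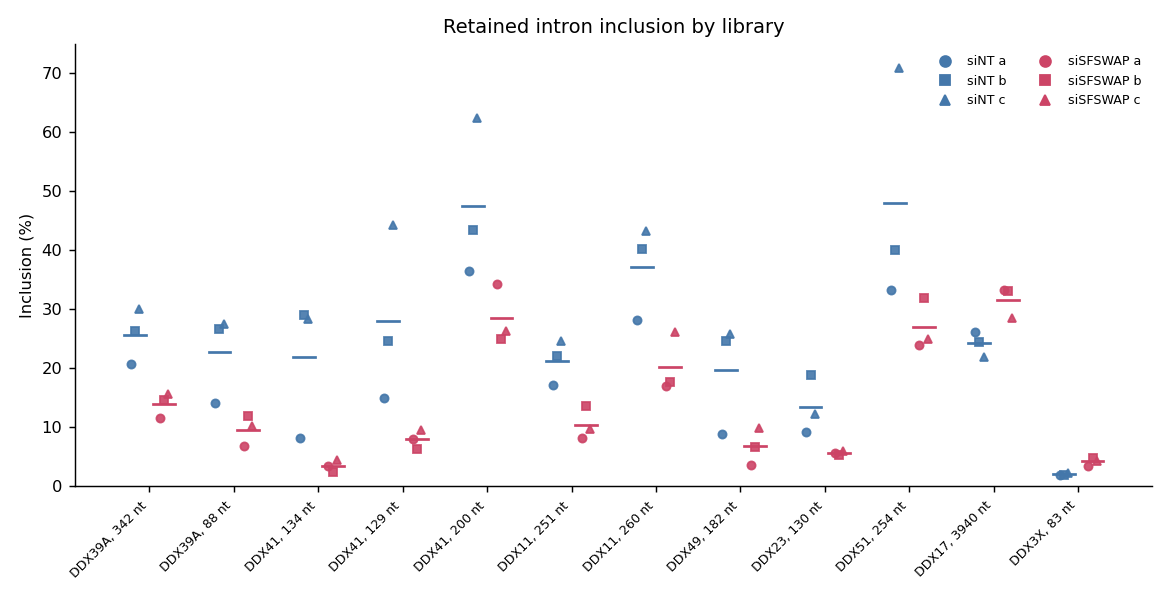
Inclusion (%, y axis) of 12 helicase introns in each siNT (blue) and siSFSWAP (red) library; symbols mark libraries a, b and c, bars the group means. In 9 of the 10 introns from DDX39A to DDX51 all siSFSWAP points lie below all siNT points, and siNT a is the siNT point nearest to them.

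The 3 introns that passed the adjusted p in the lower direction were 2 in DDX39A and 1 in DDX41, each over 60% GC. The shorter DDX39A intron and the DDX41 intron are shown from the GRCh38 sequence in the sense strand, with the splice site dinucleotides in capitals, next to the AT-rich DDX3X intron that went the other way. The first is intron 8 of DDX39A in its reference transcript of 11 exons, the second intron 13 of DDX41 of 17 exons, and the third intron 5 of DDX3X of 17 exons. All 3 lie in the coding region.
DDX39A intron 8, chr19:14409448-14409535, minus strand: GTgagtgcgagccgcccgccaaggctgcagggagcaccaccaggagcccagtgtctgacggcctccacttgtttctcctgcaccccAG
DDX41 intron 13, chr5:177512646-177512779, minus strand: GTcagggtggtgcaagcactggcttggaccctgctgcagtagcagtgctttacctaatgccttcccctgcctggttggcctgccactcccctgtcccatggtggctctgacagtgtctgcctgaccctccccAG
DDX3X intron 5, chrX:41342654-41342736, plus strand: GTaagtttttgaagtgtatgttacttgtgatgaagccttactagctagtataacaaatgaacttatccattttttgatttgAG
Their GC contents were 67.0%, 61.9% and 30.1%.

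Intron 8 of DDX39A, of 88 nt, was included at 14.2%, 26.8% and 27.5% in siNT and at 6.85%, 11.8% and 10.2% in siSFSWAP. The groups did not overlap, but siNT a was close to siSFSWAP b. The change was -13.2 points (adjusted p = 0.0218). Intron 6 of the same gene, at chr19:14409874-14410215 and 342 nt long, was included at 20.7%, 26.3% and 30.1% in siNT and 11.6%, 14.6% and 15.7% in siSFSWAP, a change of -11.7 points (adjusted p = 0.00877). Without siNT a the changes were -17.5 and -14.2 points, under the 20 points of a call in either case. Of the 8 tested DDX39A introns 4 had a lower mean, with a median change of -0.88 points and changes up to 10.99 points. Both passed the adjusted p without siNT a or c, and missed it without any 1 of the other 4 libraries and with limma on the log2 odds, at up to 0.243 and 0.197.

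Intron 13 of DDX41 had 8.16%, 29.0% and 28.4% inclusion in siNT and 3.49%, 2.44% and 4.48% in siSFSWAP. In siNT b and c it was near the same level, and siNT a lay between them and siSFSWAP. The change was -18.4 points (adjusted p = 0.0407) and -25.3 points without siNT a, which is then a call. The adjusted p exceeded 0.05 when any 1 of the other 5 libraries was left out, and over 12 alternatives the adjusted p ran from 1.59e-12 to 0.279. Intron 4 of DDX41, at chr5:177515990-177516118, was at 28.0% ± 15.0 in siNT and 7.99% ± 1.69 in siSFSWAP (SD, n = 3 each), and intron 10, at chr5:177513485-177513684, at 47.5% ± 13.5 and 28.5% ± 5.00. Neither passed the test with all libraries (adjusted p = 0.0728 and 0.182), and both were called lower without siNT a. In all, 8 of 9 tested DDX41 introns had a lower mean and 4 had all siSFSWAP libraries below siNT, against 61.2% and 15.3% of all introns.

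Without siNT a, 5 helicase introns were called lower and none higher, among 5.25% and 0.464% of all introns tested then. These were the 3 of DDX41, intron 21 of DDX11 of 260 nt (-17.0 points with all libraries and -21.5 without siNT a) and intron 8 of DDX51 of 254 nt (-21.1 and -28.5 points). DDX51, a nucleolar helicase, is named here because of that call. Its siNT libraries spread widely, at 33.3%, 40.0% and 70.9%, against 24.0%, 32.0% and 25.0% in siSFSWAP, and the adjusted p with all libraries was 0.307.

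Of the 6 tested DDX11 introns 4 had a lower mean, while intron 26 of 75 nt had a mean 9.96 points higher with overlapping libraries (adjusted p = 0.16). Other introns with low adjusted p had smaller changes. Intron 7 of DDX11, of 251 nt, was at 21.3% ± 3.81 in siNT and 10.5% ± 2.78 in siSFSWAP (adjusted p = 0.0559), and intron 8 of DDX49, of 182 nt, at 19.8% ± 9.52 and 6.78% ± 3.12 (adjusted p = 0.0892). Intron 7 of DDX23, of 130 nt, had 9.26%, 18.9% and 12.3% in siNT and 5.65%, 5.39% and 5.98% in siSFSWAP (adjusted p = 0.0989). Intron 1 of DDX56, intron 5 of DDX5 and intron 6 of DHX16 differed by -7.46, -0.67 and 1.54 points, with adjusted p above 0.2. None of these passed the threshold with all libraries. Without siNT a, the introns of DDX11, DDX49, DDX23, DDX56 and DDX5 passed the adjusted p (0.000342, 2.18e-17, 6.12e-05, 0.00855 and 0.0213), at -12.9, -18.5, -9.96, -9.75 and -0.81 points, all short of a call, and that of DHX16 did not (0.0959). These fits had fewer siNT libraries and left out the one that was often lowest. The share of all introns called lower rose as well, from 1.61% to 5.25%, so these values are no separate support.

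The DDX3X intron went the other way at a low level. Intron 5 was included at 1.89%, 1.92% and 2.32% in siNT and at 3.50%, 4.88% and 4.34% in siSFSWAP (adjusted p = 0.0261; change 2.20 points). The groups did not overlap. The adjusted p missed the threshold without siNT b or any 1 siSFSWAP library and with limma on the log2 odds, at up to 0.195. Of the 15 tested DDX3X introns, 12 had a higher mean in siSFSWAP and 3 a lower mean, against 61.2% lower over all introns. Changes ran from -5.12 to 9.82 points. In 5 of the 15 all siSFSWAP libraries lay above siNT and in 1 all below, against 6.02% and 15.3% of all introns. The 3 tested DDX17 introns also had higher means, by 0.82 to 17.1 points. The longest, intron 11 of 3940 nt, had 26.2%, 24.6% and 22.0% in siNT and 33.3%, 33.0% and 28.5% in siSFSWAP (adjusted p = 0.105). Without siNT a it passed, at 8.36 points and an adjusted p of 0.00458. In DDX5, 8 of 10 introns had a lower mean, with changes from -2.65 to 3.56 points, and in DHX9 3 of 4, with changes from -0.56 to 0.81 points. Some tested introns of DDX3X and DDX5, as of DDX39A and DDX11, are not in the reference transcript. They may be overlapping forms of others, such as the DDX3X introns of 299 and 302 nt. Such forms can share reads, so these counts by gene are not of separate observations.

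The 23 tested introns of 6 spliceosomal helicases differed by -20.0 to 7.73 points, with a median of -1.09 points. In 7 all siSFSWAP libraries lay below siNT and in 2 all above, against 15.3% and 6.02% of all introns. All 3 tested DDX23 introns had lower means and 2 had separate groups. The 4 introns of DDX46 differed by -3.32 to 7.73 points, the 4 of DHX38 by -1.41 to 2.92 points, the 2 of DHX16 by -2.69 and 1.54 points and the 1 of DHX8 by 4.41 points. The 49 introns of 14 ribosome biogenesis helicases had a median change of -0.20 points and no intron past the adjusted p.

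Inclusion can fall because fewer reads keep the intron or because more reads splice it, so the reads of both forms were set out as CPM, here of all junction reads of the intron table. At intron 8 of DDX39A, the reads that keep the intron were at 18.9, 46.0 and 42.1 CPM in siNT and 13.5, 24.6 and 22.3 CPM in siSFSWAP. The spliced reads there were at 60.5, 66.6 and 58.7 CPM in siNT and 97.1, 96.9 and 104 CPM in siSFSWAP, without overlap. At intron 13 of DDX41 the unspliced reads were at 25.3% of the siNT mean and the spliced reads at 188%. At intron 8 of DDX49 they were at 31.8% and 115%, and at intron 7 of DDX23 at 48.0% and 124%. At intron 5 of DDX3X the unspliced reads were at 169% and the spliced reads at 79.8%, and at intron 11 of DDX17 at 136% and 94.3%. These ratios of group means carry no test, and they share reads with inclusion.

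**Figure D3:**
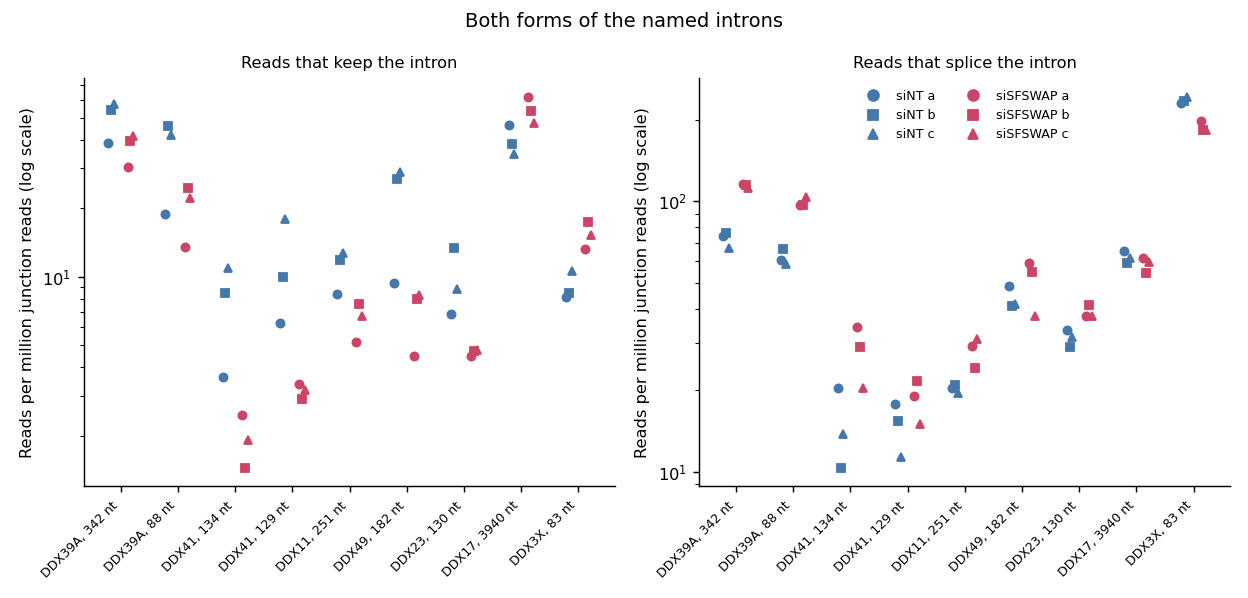
Junction reads as CPM of the intron table (y axes, log scale) that keep (left) or splice (right) 9 helicase introns, for each siNT (blue) and siSFSWAP (red) library. For both DDX39A introns the red points are lower on average on the left and higher without overlap on the right, while DDX3X goes the other way in both panels.

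The sums of spliced reads of these genes went both ways. Of the genes whose named introns had lower mean inclusion, DDX39A, DDX41, DDX49 and DDX11 had higher sums, DDX5 had lower sums, and DDX23, DDX51 and DDX56 were not called. Of those with higher inclusion, DDX3X had lower sums, and DDX17 and DHX16 were not called. These calls are from the fit with all libraries. The sums come from the exon table and the introns from the intron table of the same libraries, so they are not independent measures, and no test of the link was made.

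The introns differed in base composition. Helicase introns had a median length of 164 nt and a median GC content of 46.0%, against 161 nt and 55.4% in all tested introns. Of the 144, 142 began with GT and ended with AG. Among 51 introns of at least 55% GC, in 14 genes, 33 had a lower mean in siSFSWAP and the median change was -1.41 points. Among 71 introns under 45% GC, in 21 genes, 28 had a lower mean and the median change was 0.51 points. The 22 between them had a median change of -0.36 points. Over all tested introns the same classes had median changes of -1.68, 0.20 and -0.28 points, and 72.7%, 42.7% and 57.7% had a lower mean. These classes are a description with no test, since introns of a gene share their library and depth.

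**Figure D4:**
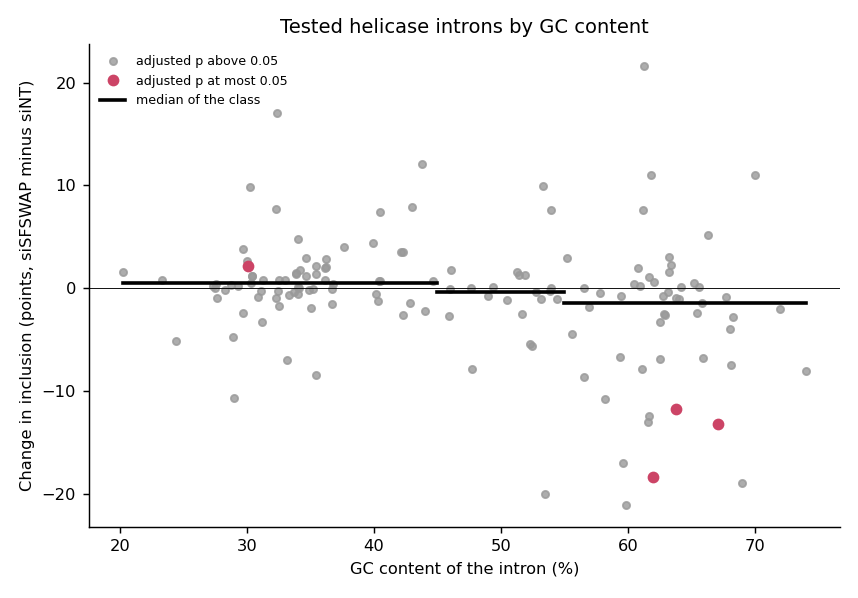
Change in inclusion (points, siSFSWAP minus siNT, y axis) against GC content (%, x axis) of the 144 tested helicase introns; black lines are the medians of introns under 45%, from 45% to 55% and from 55% GC. The 3 introns that passed the adjusted p in the lower direction have over 60% GC and the DDX3X intron 30.1%.

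The last question was which helicase exons were skipped or included differently. By the same test and thresholds, 1 helicase exon fell and 2 overlapping forms of 1 exon rose. Among all 48100 tested exon events, 0.655% were called lower and 1.44% higher. With no minimum change, 11 helicase events in 4 genes were lower and 7 in 6 genes higher, against 2.17% and 3.25% of all events. All siSFSWAP libraries lay below siNT in 38 helicase events and above in 54, against 9.03% and 14.2% of all events. Helicase exons were mostly constitutive, with a median inclusion of 95.1% to 97.4% across libraries, and their median change was 0.12 points, against 0.30 points in all events. Without siNT a, 1 was called lower and 5 higher, against 0.878% and 3.75%.

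The exons that carry these results, with 20 nt of intron on each side in lower case and the exon in capitals, read in the sense strand of GRCh38 as follows. DDX31 and DDX11 hold the called exons, and the DDX50 and DDX27 exons are seldom used and not part of the reference transcript.
DDX31 exon 8 of 20, chr9:132651055-132651136, minus strand: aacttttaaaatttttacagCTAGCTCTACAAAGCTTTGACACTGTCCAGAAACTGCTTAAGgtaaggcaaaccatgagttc
DDX11 exon 25 of 27 in its shorter form, chr12:31103302-31103415, plus strand: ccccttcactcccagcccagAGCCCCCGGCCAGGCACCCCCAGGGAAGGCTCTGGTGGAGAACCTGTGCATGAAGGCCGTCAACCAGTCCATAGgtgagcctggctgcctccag
DDX50 exon of 112 nt, chr10:68906206-68906357, plus strand: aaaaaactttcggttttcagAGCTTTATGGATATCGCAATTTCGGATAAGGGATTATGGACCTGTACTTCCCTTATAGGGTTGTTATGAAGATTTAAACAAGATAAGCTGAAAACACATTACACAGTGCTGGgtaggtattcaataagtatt
DDX27 exon of 93 nt, chr20:49231003-49231135, plus strand: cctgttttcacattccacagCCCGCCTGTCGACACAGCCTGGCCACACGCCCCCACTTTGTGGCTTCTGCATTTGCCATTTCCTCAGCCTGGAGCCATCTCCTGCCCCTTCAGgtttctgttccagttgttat

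Exon 8 of DDX31, at chr9:132651075-132651116, fell from 96.6%, 96.8% and 95.8% in siNT to 78.3%, 76.5% and 61.2% in siSFSWAP. The siNT libraries were within 1 point of each other, and siSFSWAP c was the lowest of all. The change was -24.4 points (adjusted p = 0.00119; lower in 3 of 3 libraries), and -24.3 points without siNT a. Without siSFSWAP c it was -19.0 points and no longer a call, at an adjusted p of 0.0234, within a range of 0.000948 to 0.0381 over 12 alternatives. Skipping reads numbered 4, 2 and 2 in siNT and 13, 8 and 12 in siSFSWAP, so few reads set the level. The exon has 42 nt, a multiple of 3, and holds no stop codon in the frame of the reference transcript.

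Exon 25 of DDX11 rose. In its shorter form of 74 nt, at chr12:31103322-31103395, inclusion was 74.4%, 72.3% and 71.3% in siNT and 95.0%, 95.2% and 100% in siSFSWAP. The groups lay over 20 points apart, and the change was 24.1 points (adjusted p = 0.00541). The form of 79 nt, whose 3′ splice site lies 5 nt upstream, went from 66.7% ± 2.08 to 95.2% ± 4.15 (SD, n = 3 each; adjusted p = 0.00924). Both forms were set against the same skipping reads, which numbered 15, 9 and 6 in siNT and 2, 2 and 0 in siSFSWAP, so they are 1 observation and rest on few reads. Without siSFSWAP c neither form passed the adjusted p, at 0.0511 and 0.0733, and the form of 79 nt also missed it without siSFSWAP a (0.0509) or b (0.0502). The form of 79 nt missed it without the read minimum and with limma on the log2 odds as well. Neither length is a multiple of 3. Reads of DDX12P may be mixed with these.

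Below 20 points, DDX50 and DDX27 each had a seldom used exon that was included more. The 112-nt exon of DDX50 had 7.01%, 5.33% and 3.59% in siNT and 16.9%, 17.9% and 16.7% in siSFSWAP, with no overlap (change 11.8 points, adjusted p = 0.000995). It holds a stop codon in the frame of the exons before it, and it missed the adjusted p with limma on the log2 odds (0.0729). With 2 other upstream exons the same exon had changes of 36.3 and 31.2 points on far fewer reads, which did not pass with all libraries (adjusted p = 0.09 and 0.147) and were called higher without siNT a. The 93-nt exon of DDX27 had 6.59%, 3.85% and 3.14% in siNT and 12.3%, 11.3% and 11.3% in siSFSWAP (change 7.10 points, adjusted p = 0.00525), and it keeps the reading frame. It missed the adjusted p without siSFSWAP a (0.0733) and with limma on the log2 odds (0.136). In DHX9 an exon of 137 nt, which also holds a stop codon, went from 4.40% ± 0.37 to 7.42% ± 0.89 (SD, n = 3 each; adjusted p = 0.0114). This exon missed the adjusted p without siSFSWAP b (0.0825) or c (0.0948) and with limma on the log2 odds (0.422).

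**Figure D5:**
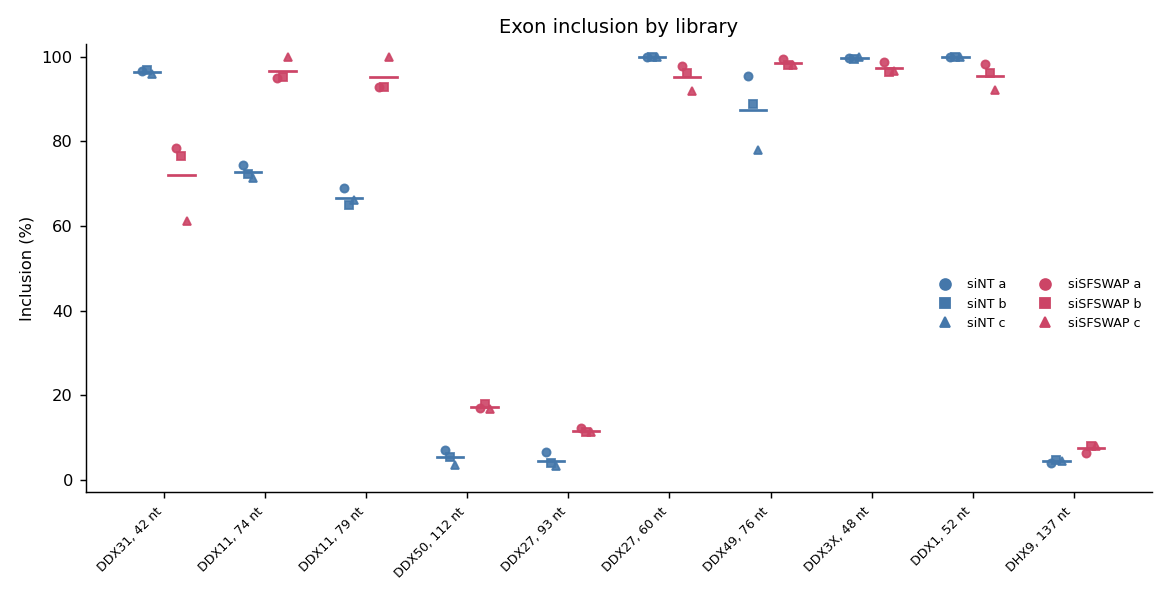
Inclusion (%, y axis) of 10 helicase exons in each siNT (blue) and siSFSWAP (red) library; symbols mark libraries a, b and c, bars the group means. The 42-nt DDX31 exon drops in all siSFSWAP libraries, both DDX11 forms rise above 90%, and the DDX50, DDX27 (93 nt) and DHX9 exons rise from under 10%.

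Near-constitutive exons were skipped slightly more in 3 genes. Exon 3 of DDX27, of 60 nt, had 0 skipping of 2526 reads in siNT, which allows a share of up to 0.119% by counting error alone, and 9, 9 and 24 in siSFSWAP, where its inclusion was 97.8%, 96.2% and 91.8% (adjusted p = 0.000283). It passed the adjusted p under all 12 alternatives, with a change of -4.72 points that became -2.99 points without siSFSWAP c. Exon 3 of DDX3X, of 48 nt, went from 99.6% ± 0.23 to 97.3% ± 1.27 (SD, n = 3 each; adjusted p = 0.00563), on skipping reads that numbered 6, 5 and 1 in controls and 12, 17 and 19 in knockdown cultures. The other 5 DDX3X forms that passed the adjusted p, by -6.62 to -8.03 points, end at the same 5′ splice site and share those skipping reads, so they are not separate findings. All 6 missed the adjusted p without siSFSWAP b or c and with limma on the log2 odds. For the exon of 48 nt it was 0.0685, 0.0794 and 0.103. Exon 2 of DDX1, of 52 nt, had 0 skipping of 935 reads in siNT (a share of up to 0.321%) and 3, 4 and 8 skipping reads in siSFSWAP (change -4.55 points, adjusted p = 0.0117), and its 2 other forms share them. It missed the adjusted p without siNT b (0.0626), siSFSWAP b (0.0557) or siSFSWAP c (0.106), and the change without siSFSWAP c was -2.84 points. Without the read minimum it missed the adjusted p as well.

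DDX49 and DHX8 complete the events past the adjusted p. Exon 7 of DDX49, of 76 nt, had 95.5%, 88.8% and 77.9% in siNT and 99.4%, 98.1% and 98.0% in siSFSWAP (change 11.1 points, adjusted p = 0.032). Its siNT libraries were spread widely, and the change was 15.2 points without siNT a and 6.39 points without siNT c. Only without siNT a did it still pass the adjusted p when 1 library was left out. It also missed the adjusted p without the read minimum and with limma on the log2 odds (0.267 at most over all alternatives). The DHX8 exon of 263 nt rests on 0 of 311 reads in siNT (a share of up to 0.965%) and on 1, 2 and 4 inclusion reads in siSFSWAP. It missed the adjusted p without siNT b or c, siSFSWAP a or b, or the read minimum (0.106 at most). Of these events past the adjusted p, only exon 8 of DDX31 and exon 3 of DDX27 passed it under all 12 alternatives. Among genes with no event past the adjusted p, the lowest values were 0.0524 for a DHX32 exon in the 5′ leader (-12.2 points), 0.0782 for a DHX36 exon of 126 nt (-14.8 points) and 0.0799 for a DDX55 exon of 239 nt (7.02 points). A DDX55 exon of 169 nt, outside the rule for naming, was the other exon called higher without siNT a, from 18.2 to 27.9 points. By role, 8 of 23 exon events of DDX11 and DDX12P had all siSFSWAP libraries above siNT and 1 all below. For the ribosome biogenesis helicases these were 27 and 7 of 102, and for the transcription and splicing cofactors 2 and 12 of 55. Over all exon events they were 14.2% and 9.03%.

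Helicases under other names and G-patch proteins, known or candidate cofactors of DEAH helicases, were listed for comparison. Among helicases such as EIF4A3, SNRNP200 and UPF1, none of 48 tested introns in 9 genes or 93 exon events in 12 genes was called. Over all introns 1.61% were called lower and 0.148% higher, and over all exon events 0.655% and 1.44%. Of 12 such helicases tested on spliced reads, SUPV3L1 and YTHDC2 were lower and none higher, beside 14.9% and 15.1% of all genes. Of 23 G-patch proteins, 11 had tested introns, and none of these 30 introns was called. Exon events could be tested in 20, and 2 of 95 were called, both in RBM5, a splicing regulator. Its exons at chr3:50100532-50100605 and chr3:50104248-50104308 fell by 28.6 and 34.3 points (adjusted p = 0.0134 and 0.00215). On spliced reads 22 of these proteins were tested, of which 5 were lower and 2 higher, beside 14.9% and 15.1% of all genes. PINX1 was listed under 2 identifiers and lower under 1. The others included RBM5 at a log2 fold change of -0.57 ± 0.14 (adjusted p = 0.00993) and GPKOW, the activator of DHX16, at 0.48 ± 0.09 (adjusted p = 0.00373).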

How the data were processed

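RNA of 6 cultures (3 siNT, 3 siSFSWAP) was sequenced from 1 end. Per the labels and methods, the authors used cutadapt 1.9.1 for trimming, STAR 2.7 for alignment (GRCh38, GENCODE 40) and rMATS for splicing events. The deposited tables of retained introns and skipped exons hold, in values of other units, unnormalised junction read counts (3 libraries per cell) and effective lengths in nucleotides, as the authors' rMATS junction model gave them. Their p-value, FDR and inclusion difference columns hold the authors' comparison and were not used, nor were 4 columns of inclusion levels. The tables number the groups, and which is siNT follows from the definition of the difference in the study's methods. Whether reads were counted by strand was not found in these sources.

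Events needed a mean of 20 reads per library, 5 reads of each form and reads in 2 libraries per group. Inclusion was tested over each whole table by a quasi-binomial F test (two-sided), its dispersion moderated with limma 3.58.1 (R 4.3.3) and floored at 1, and Benjamini-Hochberg adjustment. A call needed a change of 20 points besides an adjusted p up to 0.05. On data simulated with a fixed, assumed spread between libraries, more unchanged introns and exons passed the adjusted p alone than its level allows. Few passed both thresholds. Spliced reads per gene, 1 event per exon, were scaled by trimmed means of M values and tested with limma-trend on log2 CPM after adding 0.5. Limma took the place of the count model planned, since the joined cells are no plain count columns. P-values compare the group difference with the spread between these cultures, as moderated across all events or genes. Annotation and sequence came from GRCh38 and GENCODE 44, read with Python. The members, lists and naming rule (every called event or gene, and per table the 10 other genes with the lowest adjusted p) were chosen with earlier results of these data known.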

Additional observations from a re-analysis of the deposited data

How the results depend on the processing

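None of the events and genes recomputed under every alternative (those called, past the adjusted p or among the lowest of it) changed direction. Some uncalled genes turned on the log2 scale without siNT a. DHX40 went from -0.06 to 0.03, DDX19B from -0.02 to 0.06, DDX46 from 0.00 to -0.01 and DHX35 from -0.05 to 0.00. The median change of the helicase introns (-0.06 points) ran from -0.35 to 0.18 leaving out 1 library. For introns, the lower count of 0 became 3 with a change of 10 points, 1 without effective lengths and 0 to 5 leaving out 1 library. The counts at any change (3 lower, 1 higher) became 2 lower with at least 50 reads or without a minimum, 0 and 0 with limma on the log2 odds, and 0 to 17 lower and 0 to 6 higher leaving out 1 library. For exons, 1 lower and 2 higher became 0 and 0 without effective lengths, 1 higher with at least 50 reads, without a minimum or with limma, and 4 higher with a change of 10 points, and ran from 0 to 1 lower and 0 to 5 higher leaving out 1 library. At any change 11 lower and 7 higher became 5 and 2 with limma, 4 higher without a minimum, and 2 to 21 lower and 2 to 24 higher leaving out 1 library. Genes ran from 9 to 22 lower and 2 to 13 higher leaving out 1 library, both highest without siNT a. The log2 fold change of SFSWAP ran from -1.59 to -1.24. Apart from those built into a setting, the cause was not tested. No paired analysis was possible because the table columns carry no replicate numbers. The planned count models and replicate blocks were not run. Depth limits exons with few skipping reads.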
